A study of Mus musculus with 12 samples.

Results

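The genes described here are the forkhead transcription factor genes, taken as the protein-coding genes of the mouse annotation GENCODE M39 whose symbol is Fox, 1 letter from a to s and a number. Foxk1, Foxk2 and symbols that go on with letters were left out. The rule gave 43 of 21738 protein-coding genes, and each was examined at its promoter, the 2 kb on either side of the canonical transcription start site (TSS), on the mm39 (GRCm39) assembly. Forkhead proteins bind DNA through a winged-helix domain and act as pioneer, lineage or signal-regulated factors. FoxO members carry growth factor and stress signals to genes of quiescence and survival in blood stem cells. FoxP members direct lymphoid and neural programmes, and most other members are developmental or restricted to certain tissues. Many developmental members are classical targets of Polycomb complexes, whose PRC1 places ubiquitin on a lysine of histone H2A, the mark H2AK119ub. The deubiquitinase BAP1, activated by ASXL1, removes that mark.

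The cells were mouse bone marrow cells selected for c-Kit and labelled as hematopoietic stem and progenitor cells with the genotype label mock, so no endogenous gene is described as removed. All 12 libraries come from cells transduced with retrovirus for BAP1, the empty vector controls included. In the 1-590 set, H2AK119ub was profiled by CUT&RUN, which cuts out antibody-bound chromatin with a nuclease, in cells given BAP1 with empty vector, with ASXL1 (1-590) or with its mutants 10RA (called condensation-impaired) and 25RA (called condensation-defective). In the 1-1067 set it was profiled in cells given BAP1 with empty vector, with ASXL1 (1-1067) or with its mutants 34DN and 36EQ (both called charge-neutralized). ChIP-seq of HA-BAP1 and of HA-ASXL1 was done with 1-590 and with 10RA, for 4 libraries. Each condition has 1 library, so no difference between conditions has a replicate check and no p-value is given for any.

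Libraries differed in depth, read here as the lowest local background among a library's peaks in fragments per base. In the 1-590 set this was 0.908 for vector, 2.06 for 1-590, 1.72 for 10RA and 1.86 for 25RA. In the 1-1067 set it ran from 2.17 to 2.92 and in the ChIP libraries from 3.04 to 5.46. Vector is the shallowest library of its set, so a promoter listed with 1-590 and not with vector can differ in depth or in mark, and depth-scaled counts are given beside such counts. The lists of the 1-590 set held 20124 to 33863 peaks, 86.0% to 96.0% of them with q of 0.05 or less. Those of the 1-1067 set held 5307 to 6310 peaks, of which 22.8% to 32.7% had such a q. Peak names inside the 1-1067 lists begin with CR_Bap1 and not with the ubq of the 1-590 lists, and names in 3 lists (25RA, 34DN and 36EQ) hold a code that the titles do not. That those lists are H2AK119ub, and which mutant each belongs to, therefore rests on the sample titles.

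A promoter H2AK119ub peak was listed at 32 of the 43 forkhead genes with 1-590, at 27 with 25RA, at 24 with 10RA and at 15 with vector. Over all protein-coding genes the shares listed were 55.2% with 1-590, 47.8% with 25RA, 41.3% with 10RA and 40.5% with vector. The forkhead shares were 74.4% with 1-590 (Wilson 95% interval 59.8 to 85.1, counting error only), 62.8% with 25RA (47.9 to 75.6), 55.8% with 10RA (41.1 to 69.6) and 34.9% with vector (22.4 to 49.8). Forkhead genes were thus listed more often than genes at large with each ASXL1 form and less often with vector. The vector and 10RA intervals include the share of all genes, the lower bound with 25RA lies at that share, and the 1-590 interval lies above it. With promoters of 5 kb on either side the order with vector turned, to 51.2% of forkhead genes beside 45.2% of all genes. With fragments scaled down to the vector depth the counts were 26, 23, 21 and 15 members, beside 46.5%, 37.1%, 32.1% and 40.5% of all genes.

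**Figure D1:**
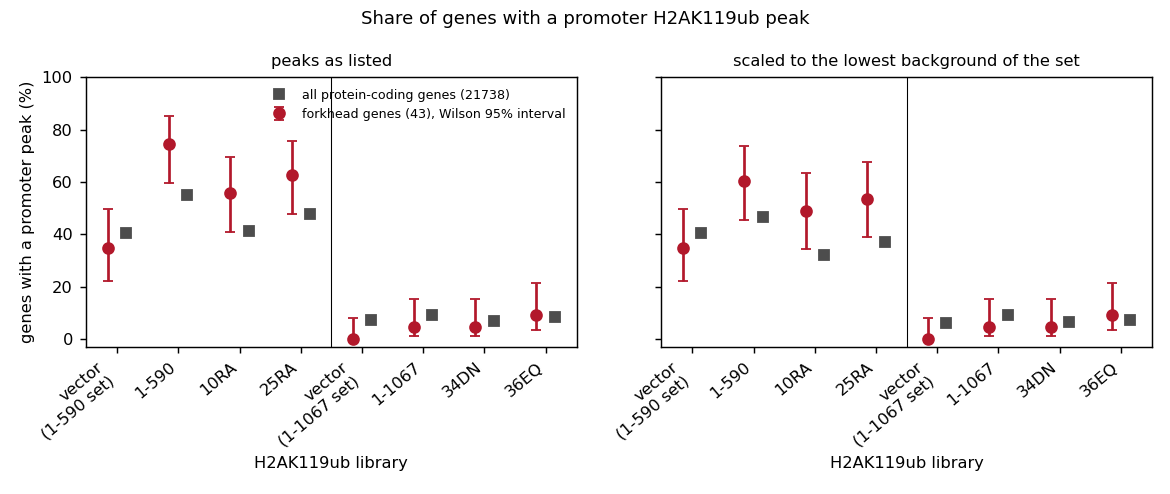
Share of forkhead genes (red, with Wilson 95% intervals) and of all protein-coding genes (grey squares) with a promoter H2AK119ub peak, in percent, in the 8 CUT&RUN libraries, as listed (left) and scaled to the lowest background of the set (right). With 1-590 the forkhead share is 74.4% against 55.2% of all genes, with vector 34.9% against 40.5%, and in the 1-1067 set every forkhead share is below 10%.

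In the 1-590 set 13 members (30.2%, beside 26.7% of all genes) were listed in all 4 libraries, and 5 (11.6%, beside 35.5% of all genes) in none. The pattern with the widest gap to all genes among the partial ones was a peak with each of the 3 ASXL1 forms and none with vector, held by 7 members (16.3%, beside 5.34% of all genes): Foxd2, Foxf1, Foxl1, Foxb1, Foxq1, Foxc1 and Foxh1. With fragments scaled to the vector depth, Foxf1, Foxl1, Foxb1 and Foxq1 kept it, 4 members (9.30%, beside 2.25% of all genes), while all 13 of the first group stayed listed in all 4 libraries (20.7% of all genes). Between 1-590 and vector, 14 members were listed in both (8140 of all 21738 genes). Another 18 were listed with 1-590 alone (17.8% of all genes) and 1, Foxa2, with vector alone (3.03% of all genes). After scaling to the vector depth 12 members were listed with 1-590 alone, beside 12.0% of all genes. The 18 stood low in fold, from 2.17 to 3.74 with a median of 2.73, whereas the 14 shared genes ran from 2.20 to 6.75 with a median of 3.46. The 2 groups were split by the list of the shallower vector library. Whether the lower folds follow from that split was not tested, and the same split over all genes is not given. Fold is the authors' value, the fragments at the peak summit plus 1 over the local background plus 1, and each fold is read within its own library. Between the mutants and 1-590, 3 members were listed with 10RA alone (4.53% of all genes) and 11 with 1-590 alone (18.4%), and 2 with 25RA alone (5.53%) and 7 with 1-590 alone (12.9%).

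**Figure D2:**
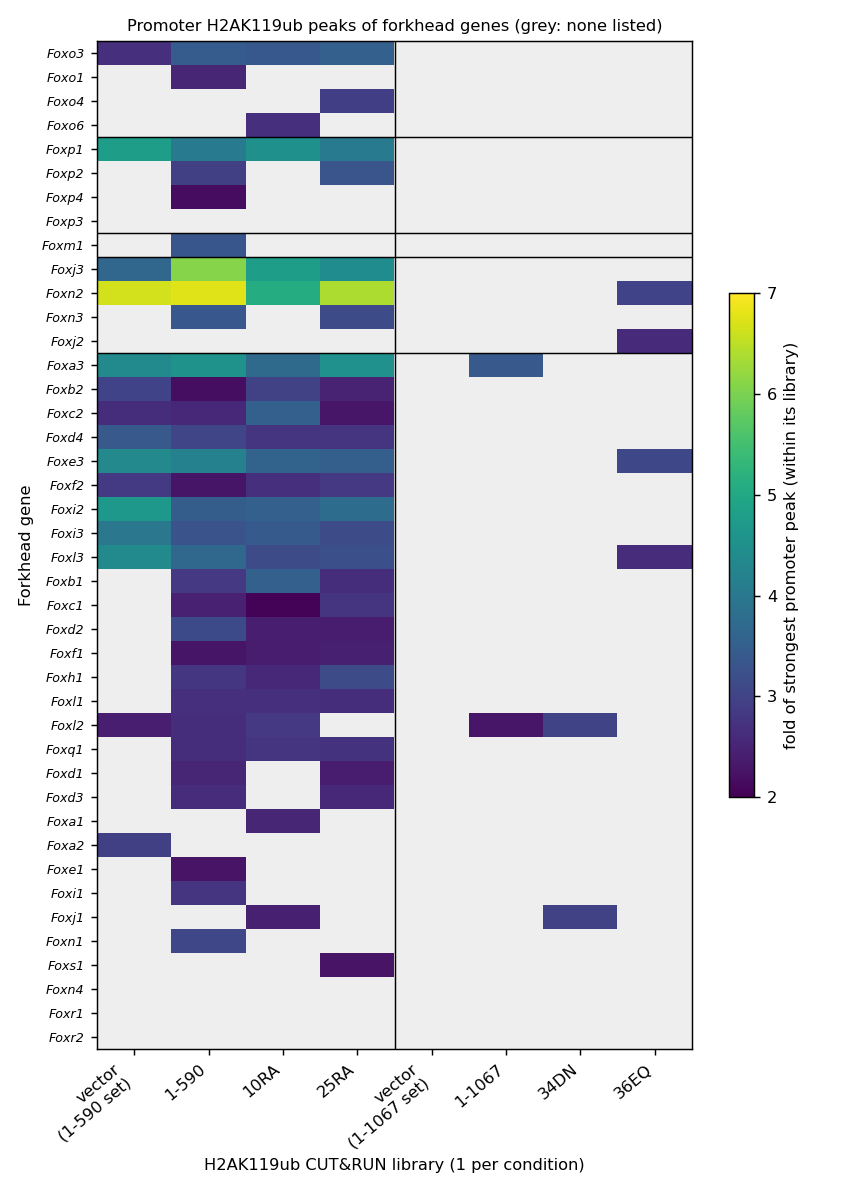
Fold of the strongest promoter H2AK119ub peak (color, 2 to 7; grey where none was listed) of forkhead genes (rows; lines divide FoxO, FoxP, Foxm1, broadly expressed and developmental members) in the 8 CUT&RUN libraries (columns; 4 of the 1-590 set left of the line). Foxn2 and Foxj3 carry the strongest peaks of the 1-590 library, and the 1-1067 set is grey at nearly every gene.

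Among the FoxO genes, which AKT phosphorylates and holds out of the nucleus, Foxo3 alone was listed in all 4 libraries of the 1-590 set. Foxo3 is the FoxO best known for keeping blood stem cells quiescent. Its strongest peak had a fold of 2.67 over 14 summit fragments with vector, 3.46 over 41 with 1-590, 3.38 over 21 with 10RA and 3.53 over 26 with 25RA. It held 3 promoter peaks with 1-590 and 4 with 25RA, spread from 1309 bases upstream to 2113 bases inside the gene. Neither of the 2 vector peaks at Foxo3 reached q of 0.05. The canonical TSS of Foxo3 lies inside the span of the gene, so the upstream side of its window still overlaps the gene.

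Foxo1, the other FoxO with a large role in lymphoid and progenitor cells, was listed with 1-590 and in no other library. Its peak, 836 bases long in the first intron with the summit 1703 bases past the TSS, was at a fold of 2.54 with 25 fragments over a background of 9.25. It did not pass after scaling to the vector depth or in lists of equal length. In the other libraries of that set the nearest peak lay 58366 (vector), 8685 (10RA) and 22197 bases (25RA) from the TSS. Foxo1 has the most CpG dinucleotides around its TSS of all 43 members, 122 in 1001 bases. The stretch at its summit (150 bases, chr3:52177385-52177534, plus strand, GRCm39; CG in capitals) is shown because it is the one intronic FoxO peak found with 1-590 alone, and it holds 9 CG.
Foxo1: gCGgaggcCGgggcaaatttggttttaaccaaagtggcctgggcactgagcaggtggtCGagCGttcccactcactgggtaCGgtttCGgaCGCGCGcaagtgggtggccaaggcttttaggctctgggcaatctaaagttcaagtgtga

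Foxo4 was listed with 25RA alone, with a fold of 2.94 over 15 fragments in exon 1, and it did not pass depth scaling. Foxo6, expressed mainly in brain, was listed with 10RA alone, with a fold of 2.68 over 33 fragments. In the other libraries of the set its peaks lay outside the promoter window: with vector, 1-590 and 25RA the nearest was 3368, 3485 and 3551 bases from the TSS, with folds of 3.59, 2.72 and 2.55. No FoxO gene had a promoter peak in any library of the 1-1067 set.

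Genes of the FoxO pathway were counted in the same way. Of 11 genes acting upstream of FoxO (among them PI3K subunits, Pdpk1, Sgk1 and Ywhaz), 7 had a promoter peak with vector, 8 with 1-590, 7 with 10RA and 5 with 25RA. Of 15 genes known as FoxO targets, 10 were listed with vector, 13 with 1-590, 10 with 10RA and 13 with 25RA. Cdkn1b, an inhibitor of cyclin-dependent kinases, was listed in all 4, with folds of 4.75, 5.14, 3.16 and 2.95 in the same order. Its relative Cdkn1a was listed with 1-590 (4.92) and 25RA (3.34), and Irs2, an adaptor of insulin signalling, with 1-590 (3.88), 10RA (3.33) and 25RA (3.61). In the 1-1067 set the upstream genes had 1, 1, 0 and 3 listed in vector, 1-1067, 34DN and 36EQ, and the targets 0, 1, 2 and 2. These lists were written from general knowledge of the pathway and were not set beside CpG-rich promoters. Their difference from all genes, whose shares are given above, was not tested.

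Among the FoxP genes Foxp1, a regulator of B cell development, was listed in all 4 libraries of the 1-590 set. Its folds were 4.79 with vector, 4.07 with 1-590, 4.50 with 10RA and 4.04 with 25RA, over 12, 21, 15 and 13 fragments. Foxp1 stood on a low background, 1.89, 2.14, 1.48 and 1.33 times the genome background, and was in this unlike most developmental members. The canonical TSS of Foxp1 (chr6:99005220, minus strand) lies far inside the gene, whose span begins upstream at 99499685. Its peaks are thus at an internal start. Foxp2, a gene of neural circuits, was listed with 1-590 (2.94, exon 1) and 25RA (3.31, 753 bases upstream), at places that do not overlap. Foxp4 was listed with 1-590 alone, with a fold of 2.17 over 25 fragments, and did not pass depth scaling. Foxp3, the master regulator of regulatory T cells, was listed in none of the 12 libraries, and its nearest peak in the 1-590 library lay 4911 bases from the TSS. Foxm1, which drives genes of mitotic entry, was listed with 1-590 alone, with a fold of 3.33 and 29 fragments at a summit 214 bases inside the gene. It passed depth scaling. That peak also reaches the promoter of the neighbour Rhno1, whose TSS is 381 bases away, so it cannot be assigned to either gene.

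Foxn2, a broadly expressed member, held the strongest forkhead peak in each library of the 1-590 set. It had folds of 6.66 with vector, 6.75 with 1-590, 5.10 with 10RA and 6.39 with 25RA, over 25, 43, 24 and 32 fragments. These summits lay 125 to 246 bases upstream of its TSS, and its fold stood at percentile 92.5, 86.4, 85.0 and 94.3 of all genes with a promoter peak in those libraries. Foxj3, a gene of meiosis in the testis and of muscle fibre type, had folds of 3.64, 6.09, 4.80 and 4.43 in the same order, over 10, 27, 17 and 16 fragments. Its summits lay 27 to 205 bases inside exon 1, and its peaks also reach the promoter of Frg2f1, whose TSS is 1069 bases away. Foxn3 was listed with 1-590 (3.35) and 25RA (3.14) at summits 86 bases apart. Its canonical TSS (chr12:99359349, minus strand) also lies far inside the gene, whose span begins upstream at 99530218. Foxj2 was listed in none of that set, its nearest peaks being 6500 bases from the TSS with vector, 6548 with 1-590, 17511 with 10RA and 6576 with 25RA.

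Of the 30 developmental and tissue-restricted members, 23 were listed with 1-590, 20 with 25RA, 19 with 10RA and 11 with vector. The shares of all genes were 55.2%, 47.8%, 41.3% and 40.5%, so these too were lowest with vector. After scaling to the vector depth the counts were 20, 17, 16 and 11, beside 46.5%, 37.1%, 32.1% and 40.5% of all genes. Foxe3, a lens gene with 1 exon, had folds of 4.36 with vector, 4.19 with 1-590, 3.58 with 10RA and 3.52 with 25RA, over 29, 63, 38 and 39 fragments. Foxa3, a liver and gut factor, had folds of 4.39, 4.57, 3.72 and 4.53 in the same order, with all 4 summits within 51 bases of each other. Its peak also lies in the promoter of Sympk, a polyadenylation factor gene that starts 764 bases away. Foxi2 had folds of 4.67, 3.47, 3.53 and 3.76, and its relative Foxi3, a gene of placodes, ear and teeth, 3.98, 3.28, 3.41 and 3.14. Foxl3 had 4.38, 3.68, 3.15 and 3.22, and Foxd4 3.40, 3.04, 2.77 and 2.76. Foxc2, a lymphatic vessel and mesenchyme gene, Foxf2 and Foxb2 completed the group with folds of 2.20 to 3.53.

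The 7 members listed with every ASXL1 form and not with vector had folds of 2.05 to 3.53. Foxf1, needed for lung and gut mesenchyme, had folds of 2.28 with 1-590, 2.39 with 10RA and 2.44 with 25RA, over 40, 39 and 36 fragments. Foxl1, a gene of intestinal mesenchyme, had 2.68, 2.70 and 2.65 in the same order, and Foxq1, a gene of hair and stomach, 2.65, 2.78 and 2.73. Foxb1, a gene of the developing diencephalon, had 2.83, 3.53 and 2.66. These folds are small, and the fragments behind them, 25 to 40 for those 4 genes, stand on backgrounds of 8.51 to 17.0 fragments. Foxd2, a kidney gene, had folds of 3.12, 2.42 and 2.38, and its 1-590 peak, 2118 bases long, was the longest promoter peak of any forkhead gene. Foxc1, a gene of mesenchyme and of the marrow niche, had 2.45, 2.05 and 2.75, and Foxh1, a partner of SMAD proteins in Nodal signalling, 2.78, 2.58 and 3.16. The Foxh1 peaks with 1-590 and 10RA also reach the promoter of Ppp1r16a, 1667 bases away.

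Other developmental members were listed in part of the set. Foxd3, the neural crest gene, was listed with 1-590 and 25RA at folds of 2.64 and 2.57, and Foxd1, a kidney stroma gene, in the same libraries at 2.54 and 2.39. Foxe1 (thyroid, 2.26), Foxi1 (inner ear and kidney, 2.77) and Foxn1 (thymic epithelium, 3.07) were listed with 1-590 alone. Of these 3 genes Foxn1 passed depth scaling. Foxa1, a liver and lung pioneer factor, and Foxj1, the regulator of motile cilia, were listed with 10RA alone, at folds of 2.53 and 2.45, and Foxs1 with 25RA alone at 2.25. Foxl2, the ovarian granulosa gene, was listed with vector (2.42), 1-590 (2.66) and 10RA (2.84) and not with 25RA. Foxn4, Foxr1 and Foxr2 were listed in none of the 12 libraries, and Foxr2 is the member with the fewest CpG around its TSS, 2 in 1001 bases.

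Foxa2, the endoderm pioneer factor, entered the vector count alone because of where the promoter window ends. All 4 libraries of the 1-590 set had a peak whose near edge lay 1939 to 2158 bases from its TSS, and the 4 peaks share 223 bases (chr2:147886625-147886847). Their folds were 2.95 with vector, 2.63 with 1-590, 2.55 with 10RA and 2.91 with 25RA. Of these peaks the vector one was the one that reached inside 2 kb. With a promoter of 5 kb on either side 0 forkhead genes were listed with vector alone (3.39% of all genes) and 14 with 1-590 alone (18.0%).

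The sequence under the summit was read for 4 further genes. Foxl2 is shown as the one member listed in 2 libraries of the 1-1067 set. Its peaks in those 2 libraries do not reach within 1 kb of the TSS. The Foxl2 stretch, taken at the 1-590 summit, is therefore not under them. Foxe1, Foxi1 and Foxn1 are shown as members listed in the 1-590 library alone whose stretch holds no untranslated bases, which leaves out Foxm1 and Foxp4. Each is the 150 bases around the 1-590 summit on the gene's strand, GRCm39, with CG in capitals. Foxl2 (chr9:98836693-98836842, plus) lies 573 bases upstream and Foxe1 (chr4:46344669-46344818, plus) 1135 bases inside its exon. Foxi1 (chr11:34157045-34157194, minus) and Foxn1 (chr11:78275843-78275992, minus) lie in introns.
Foxl2: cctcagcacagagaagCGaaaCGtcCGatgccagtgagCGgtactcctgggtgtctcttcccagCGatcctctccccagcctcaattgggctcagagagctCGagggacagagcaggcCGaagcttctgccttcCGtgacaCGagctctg
Foxe1: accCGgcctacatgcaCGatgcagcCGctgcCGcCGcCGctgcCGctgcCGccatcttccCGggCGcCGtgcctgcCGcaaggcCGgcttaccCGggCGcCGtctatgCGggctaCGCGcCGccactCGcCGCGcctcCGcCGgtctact
Foxi1: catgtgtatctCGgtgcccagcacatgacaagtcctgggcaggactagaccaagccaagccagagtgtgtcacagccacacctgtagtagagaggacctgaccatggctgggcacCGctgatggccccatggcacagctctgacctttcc
Foxn1: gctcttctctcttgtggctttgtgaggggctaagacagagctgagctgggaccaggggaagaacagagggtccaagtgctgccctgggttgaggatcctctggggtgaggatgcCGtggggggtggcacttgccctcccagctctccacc
The stretches hold 9, 25, 2 and 1 CG. Over the 31 forkhead genes whose strongest 1-590 summit lay within the sequence read, the number ran from 1 to 25 with a median of 11, and the median over all listed genes was 12. The Foxi1 and Foxn1 stretches are among 4 (12.9%) with 2 CG or fewer, beside 5.74% of all listed genes.

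The promoters of forkhead genes were rich in CpG: 29 of 43 (67.4%) met the criterion of an observed over expected ratio above 0.6 and a GC content above 50% in 1001 bases, beside 46.0% of all genes. Since CpG-rich promoters were listed more often in every library of the 1-590 set, the members were also set beside such promoters alone. Of the 29 CpG-rich forkhead promoters 10 were listed with vector, 24 with 1-590, 17 with 10RA and 20 with 25RA. Among all CpG-rich promoters 67.2%, 87.3%, 65.1% and 74.5% were listed in the same order. The excess of forkhead genes over all genes seen with each ASXL1 form was thus not present among CpG-rich promoters, and with vector the forkhead count was far below. At promoters with 60 CpG or fewer, forkhead shares were above those of all genes with each ASXL1 form, on few genes. Of 10 with 21 to 60 CpG, 6, 7, 6 and 7 were listed in the same order, beside 46.0%, 66.2%, 48.4% and 57.0%. Of 5 with 20 CpG or fewer, 0, 2, 2 and 1 were listed, beside 6.43%, 10.8%, 9.08% and 10.9%. Of the 12 forkhead genes with over 90 CpG around the TSS, 3 were listed with vector and 11 with 1-590. Of all 2124 such genes 1434 (67.5%) were listed with vector and 1911 with 1-590, so the 1-590 count is near the background. Those 12 are Foxo1, Foxo3, Foxm1, Foxp4, Foxn2, Foxn3, Foxf1, Foxf2, Foxc1, Foxd2, Foxd3 and Foxa1.

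The peaks of forkhead genes lay away from the TSS. With 1-590 the strongest summit was within 500 bases of the TSS at 10 of 32 genes (31.2%), beside 76.1% of all listed genes. With vector the share was 4 of 15 beside 75.4%, with 10RA 7 of 24 beside 69.0%, and with 25RA 8 of 27 beside 70.5%. Among the developmental members 1 of 11 summits was that close with vector, 4 of 23 with 1-590, 4 of 19 with 10RA and 6 of 20 with 25RA. Among the listed FoxO, FoxP, Foxm1 and broadly expressed genes the counts were 3 of 4, 6 of 9, 3 of 5 and 2 of 7, so the 2 groups were alike with 25RA and apart in the other libraries. Over all strongest summits, near ones included, exon 1 held 8 of 15 with vector, 13 of 32 with 1-590, 10 of 24 with 10RA and 17 of 27 with 25RA. Of the 43 genes 13 (30.2%) have 1 exon, beside 6.17% of all genes.

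**Figure D3:**
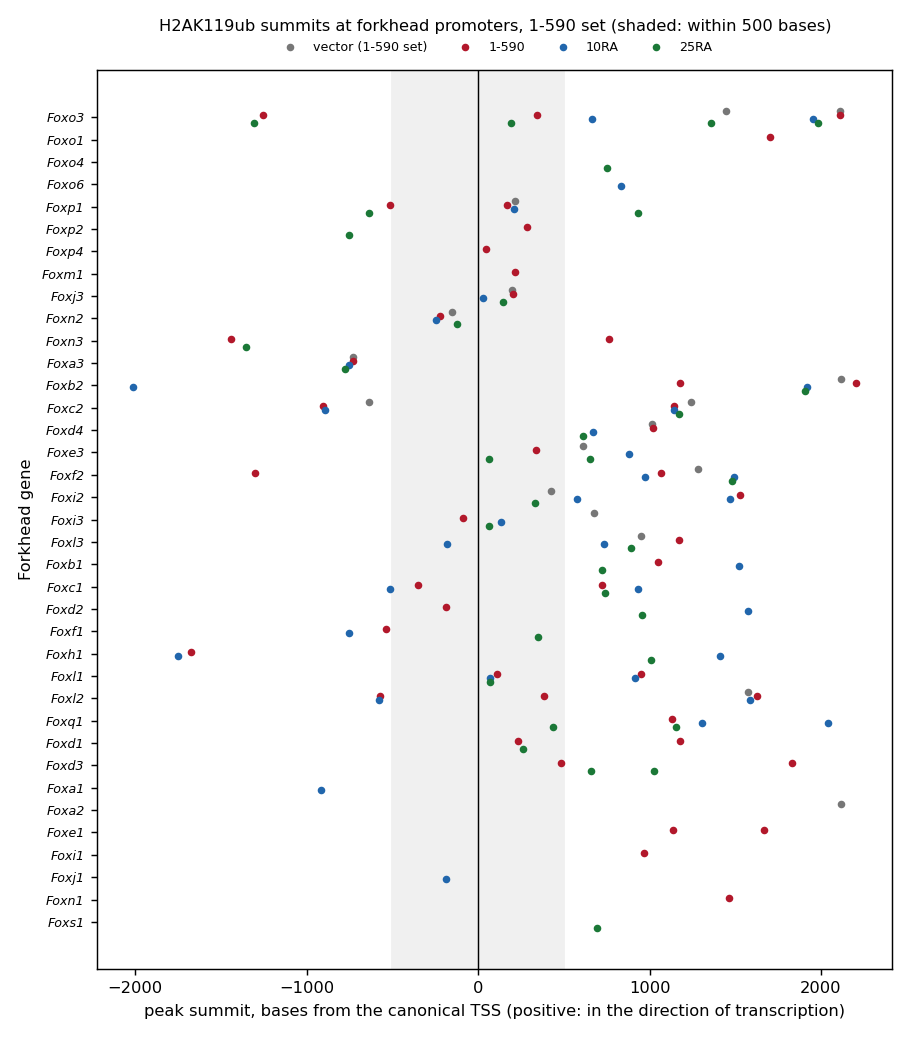
Positions of the promoter H2AK119ub summits (dots, colored by library of the 1-590 set) of forkhead genes listed in at least 1 of those libraries, in bases from the canonical TSS along the direction of transcription; the shaded band marks 500 bases on either side. Foxn2, Foxj3 and Foxa3 have summits from all 4 libraries at nearly 1 place, while most developmental genes have theirs outside the band.

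The strongest summits of 1 gene often fell at different places in different libraries. Of the 13 members listed in all 4 libraries, 12 had an interval that overlapped a peak of each library, the exception being Foxi2, and the median spread of their strongest summits was 768 bases. It ran from 51 bases at Foxa3 to 4130 at Foxb2. The longest forkhead promoter peak was 2118 bases, so the strongest peaks at Foxb2 were not all 1 shared peak. The interval could come from any promoter peak of the gene and the spread from the strongest alone. No such spread over all genes is given here. Of the 8 members listed in 3 libraries, Foxf1 and Foxh1 had no such interval, and of the 5 listed in 2 libraries, Foxp2 had none.

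Forkhead peaks also stood on a high local background and were low in fold. With 1-590 the background at the strongest promoter peak had a median of 5.38 times the genome background at forkhead genes, beside 2.47 at all listed genes, and 27 of 32 members were above that latter median. With vector the medians were 6.10 and 2.73, with 10RA 5.90 and 2.16, and with 25RA 4.66 and 2.22. The median fold with 1-590 was 2.88 at forkhead genes and 4.16 at all listed genes, and 28 of 32 members were below the latter. Developmental members stood on the higher background, with a median of 6.04 with 1-590 against 2.85 at the 9 other listed members. The extreme was Foxc1, whose background of 11.6 stood at percentile 99.7 of all listed genes and whose fold stood at percentile 3.99. The local background is itself drawn from fragments around the peak, so a low fold there is a small rise over many fragments. Whether those fragments carry the mark was not tested.

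**Figure D4:**
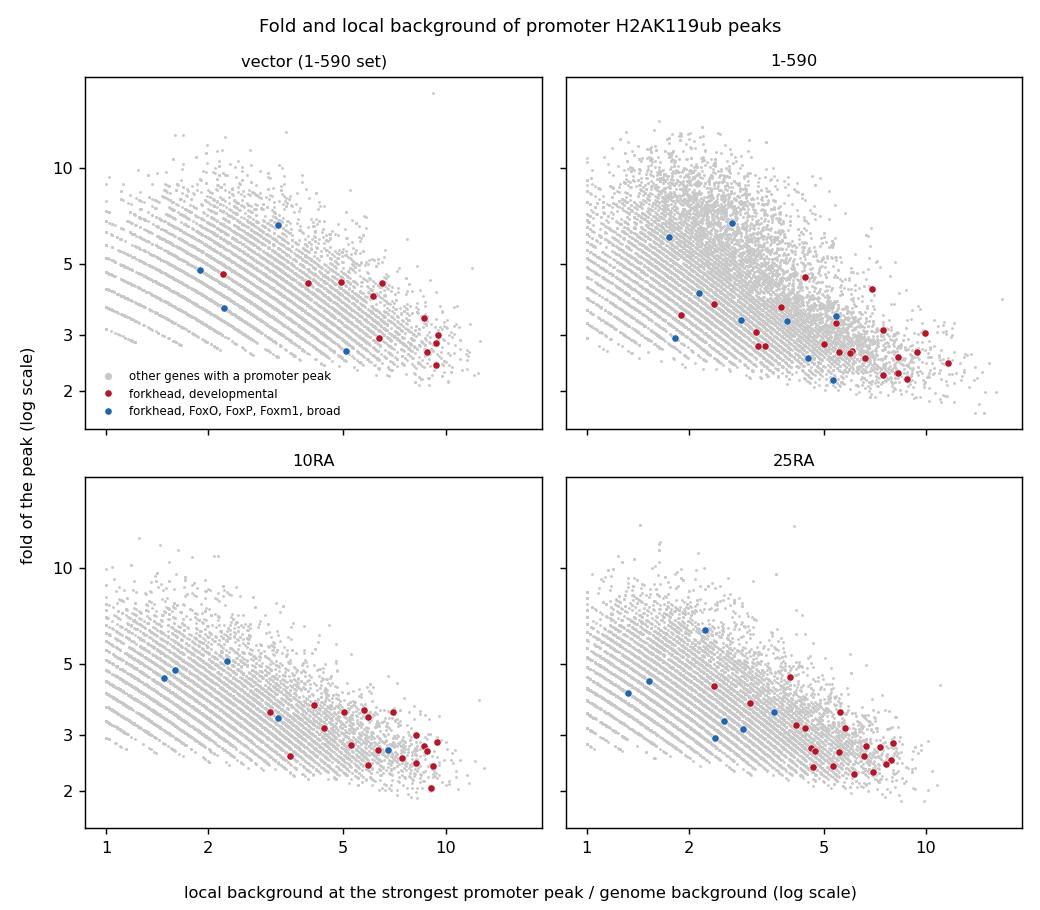
Fold of the strongest promoter H2AK119ub peak against the local background at that peak over the genome background of that library (both axes on log scales), for the 4 libraries of the 1-590 set; grey points are other listed genes, red points developmental forkhead genes and blue points the other forkhead genes. In all 4 panels most red points lie at the high background and low fold end, while Foxn2 is the highest blue point.

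A wider window also held scattered peaks, but there the forkhead share with vector was above that of all genes and not below it. Within 10 kb of the TSS 39 of 43 forkhead genes (90.7%) had a peak with each of 1-590, 10RA and 25RA, and 29 (67.4%) with vector. The shares of all genes were 65.2%, 55.0%, 61.3% and 51.3%. In that window 12 forkhead genes (27.9%) had 3 or more peaks with each ASXL1 form, beside 7.59%, 4.18% and 6.32% of all genes, and 3 (6.98%) had as many with vector, beside 2.26%. Foxh1 had the most, 6 with 25RA, and Foxl2 had 5 with 1-590. These counts were not scaled for depth, and vector is the shallowest library of the set. The windows can also hold promoters of other genes, such as Ppp1r16a, 1667 bases from Foxh1. Windows of near neighbours such as Foxc2 and Foxl1 overlap, so a peak can be counted at both.

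Some forkhead genes sit side by side, and 3 such neighbourhoods were measured from 2 kb before the first gene to 2 kb past the last. In the Foxf1, Foxc2 and Foxl1 cluster (chr8:121809074-121859383) 2.21% of bases lay under a peak with vector, 7.03% with 1-590, 5.70% with 10RA and 5.74% with 25RA, in 3, 7, 8 and 6 peaks. Over all bases of the genome the shares were 0.263%, 0.495%, 0.357% and 0.426%. The spans were set around genes, so these genome shares are not a background for them. Spans around other genes were not measured. Of the 3 promoters there, 1 was listed with vector (Foxc2) and all 3 with each ASXL1 form. In the pair Foxd2 and Foxe3 (chr4:114761479-114785210) the covered shares were 3.16%, 14.7%, 6.80% and 6.16%, and in the longer cluster Foxq1, Foxf2 and Foxc1 (chr13:31738117-31998459) 1.03%, 1.84%, 1.63% and 1.14%. In that longer cluster too 1 promoter (Foxf2) was listed with vector and 3 with each ASXL1 form. After scaling to the vector depth Foxc1 was not listed with 10RA, and Foxd2 stayed listed with 1-590 alone. The span from Foxf1 to Foxl1 also holds the coding gene Mthfsd, and peaks were not divided between it and the forkhead genes. Covered length moves with depth as well as with the mark, and its part in these shares was not tested.

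**Figure D5:**
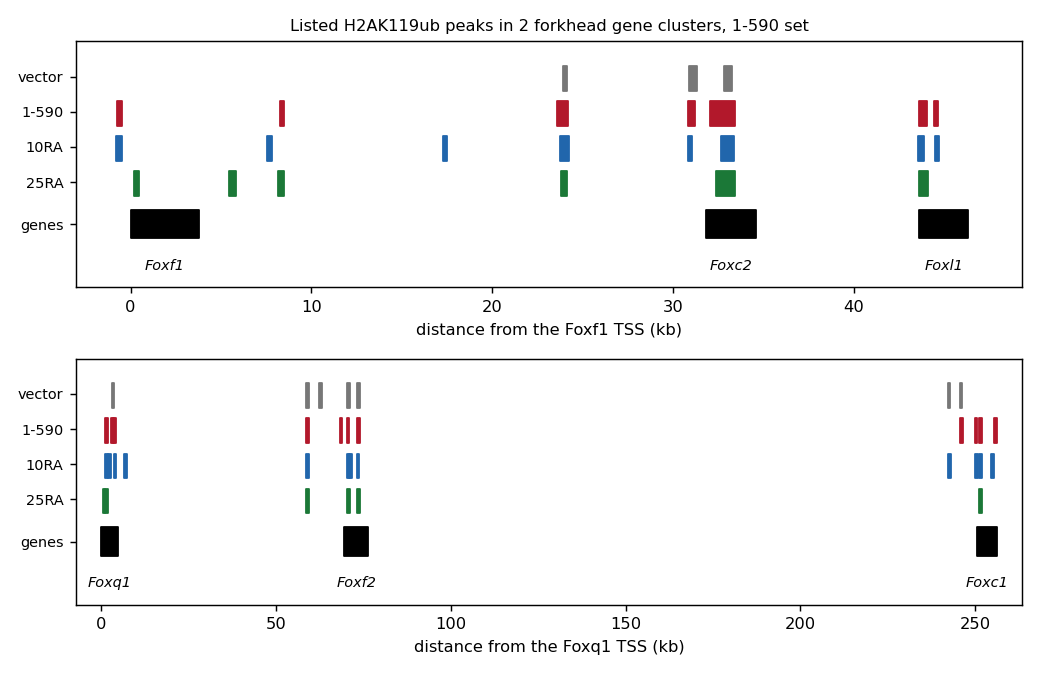
Listed H2AK119ub peaks (colored bars, drawn no thinner than a visible line) in the 4 libraries of the 1-590 set across the Foxf1, Foxc2 and Foxl1 cluster (top) and the Foxq1, Foxf2 and Foxc1 cluster (bottom), in kb from the first gene's TSS, with the Fox genes as black bars. Peaks stand at Foxc2 in all 4 libraries and at Foxf1 and Foxl1 with the 3 ASXL1 forms.

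In the 1-1067 set few forkhead promoters were listed: 0 with vector (which allows up to 8.20% by the Wilson interval), 2 with 1-1067, 2 with 34DN and 4 with 36EQ, beside 7.44%, 9.21%, 6.96% and 8.52% of all genes. Foxa3 (fold 3.39 over 22 fragments) and Foxl2 (2.31 over 16) were listed with 1-1067, and Foxl2 (3.02 over 18) and Foxj1 (2.97 over 17) with 34DN. Foxe3 (3.08 over 23), Foxl3 (2.64 over 15), Foxj2 (2.59 over 16) and Foxn2 (16 fragments over a background of 4.67) were listed with 36EQ. In at least 1 of these 4 libraries 7 members were listed, beside 20.9% of all genes. The forkhead shares were 4.65% with 1-1067 and with 34DN (Wilson 95% interval 1.28 to 15.5) and 9.30% with 36EQ (3.68 to 21.6), and these intervals, like that with vector, include the shares of all genes. Where a gene was listed in both sets the places differed at several: the 36EQ peak of Foxn2 lay 1971 bases upstream, and that of Foxe3 1558 bases upstream.

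No forkhead promoter held a BAP1 or ASXL1 ChIP peak. Over all genes 0.363% had one for BAP1 with 1-590, 0.552% for BAP1 with 10RA, 1.06% for ASXL1 with 1-590 and 0.455% for ASXL1 with 10RA, and 2.23% had any of these, so a count of 0 of 43 is near the background and limits the share to 8.20% in each. The labels name antibodies to BAP1 and ASXL1 in one place and to the HA tag in another. The nearest peak to any forkhead TSS was an ASXL1 peak with 10RA 3305 bases from Foxd3, and the nearest BAP1 peak, with 10RA, lay 6115 bases from Foxr2. Their -log10 q was 0.315 and 0.752, so neither reached q of 0.05. In the ChIP lists 10.6% to 16.9% of peaks had q of 0.05 or less. Median distances from a forkhead TSS were 447670 bases for BAP1 with 1-590, 207569 for BAP1 with 10RA, 104902 for ASXL1 with 1-590 and 188038 for ASXL1 with 10RA. These lists held 3572, 4875, 8370 and 4584 peaks in the same order, and a longer list places peaks nearer to any gene. Distances over all genes are not given, so no difference between the lists is read from these medians. Inside the genes, ChIP peaks were listed in Foxo1, Foxj3, Foxp2, Foxp1 and Foxo3, at folds of 2.23 to 3.02. The strongest, a BAP1 peak with 10RA 313264 bases into the long gene Foxp2, was the single one of them with q of 0.05 or less.

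Peak lists of this mark do not measure expression, so the labelled cell type was checked as the presence of the mark alone. Of 6 genes of hematopoietic stem and progenitor cells, 3 had a promoter peak with vector, 4 with 1-590, 2 with 10RA and 4 with 25RA, and Cd34 and Kit were listed in all 4. Of 4 stromal or endothelial genes, 1 was listed in each of those libraries, Col1a1 with vector and 1-590 and Pecam1 with 10RA and 25RA. Over all genes the shares listed in those libraries were 40.5%, 55.2%, 41.3% and 47.8%. In the 1-1067 set the stem and progenitor genes Ptprc and Spi1 were listed with 1-1067 and 0 of the 6 in the other libraries, while Col1a1 was listed with 1-1067, 34DN and 36EQ. Kit, the gene of the c-Kit selection, and Cd34, a gene of the marker list, thus carried a peak in the 1-590 set. A listed peak at a forkhead gene does not say whether that gene is on or off.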

How the data were processed

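The files are 12 peak lists, called per library by the authors; the submitters' processing notes name fastp 0.24.0, Bowtie2 2.5.4, SAMtools, Picard, MACS3 3.0.3 and mm39. Use of a control library is not given in the sources used here. The labels describe a normalization of CUT&RUN by E. coli spike-in. The deposited fold is a ratio of summit fragments plus 1 to local background plus 1. The deposited -log10 p and -log10 q belong to the summit within its library, and the deposited score is the whole part of 10 times -log10 p. The authors' summit offset gave summit positions.

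From fold and p the whole fragments and local background of each summit were recovered (Poisson tail, tolerance 0.01 in -log10 p), failing at 4 of 159554 peaks on chromosomes 1 to 19, X and Y. A gene was listed where a peak overlapped its promoter by 1 base or more. For depth scaling, fragments and background were multiplied down to the lowest genome background of the set, and peaks kept at p of 0.001 or less. Whether fragments were subsampled to the spike-in before calling cannot be seen in these lists.

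Any forkhead gene could be named, but 1 of them is not reported here by name, though it is counted; other genes came from the lists of FoxO regulators, FoxO targets and cell markers, or share a peak with a forkhead gene. The members and lists were chosen with earlier results of these data known. No unit allows a test between conditions, each with 1 library; Wilson intervals cover counting error only. Sequences were read from the GRCm39 genome. Overlaps and recovery were tested on simulated data and against bedtools 2.31.1. Python 3.11.15, pandas 2.3.3 and scipy 1.17.1 were used. Alternatives were promoter width, q of 0.05, equal list length, any annotated TSS, summit in the promoter and, chosen after seeing the data, depth scaling.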

Additional observations from a re-analysis of the deposited data

How the results depend on the processing

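Across 7 alternatives the counts of listed forkhead genes in the 4 libraries of the 1-590 set stayed within 1.5 times their value: 11 to 22 with vector, 25 to 36 with 1-590, 20 to 29 with 10RA and 22 to 33 with 25RA. At the ends of these ranges the shares of all genes were 37.3% and 45.2% with vector and 52.1% and 59.8% with 1-590. They were 37.0% and 47.6% with 10RA and 39.1% and 54.2% with 25RA. The count listed with 1-590 and not with vector ran from 12 (depth scaling) to 19 (q of 0.05 or less), beside 12.0% and 19.2% of all genes. The count with vector and not with 1-590 was 0 with promoters of 5 kb, with any annotated TSS and with the summit in the promoter, and 1 with the 4 other alternatives. With promoters of 5 kb the forkhead share with vector, 51.2%, was above that of all genes, 45.2%. Counts in the 1-1067 set are small and moved more. With promoters of 5 kb they were 3 with vector, 6 with 1-1067 and 5 with 34DN, beside 9.63%, 11.8% and 9.27% of all genes. With promoters of 1 kb they were 1 with each of 1-1067, 34DN and 36EQ, beside 7.45%, 5.88% and 7.19%. With q of 0.05 or less they were also 1 with each of these, beside 4.38%, 3.43% and 4.65%. With lists of equal length the count was 1 with 1-1067 (8.41% of all genes), and with any annotated TSS 1 with vector (9.36%). The count for the ChIP libraries, 0, was 1 with promoters of 5 kb and 1 with any annotated TSS. The first was for ASXL1 with 10RA (1.42% of all genes) and the second for BAP1 with 1-590 (0.879%). The cause was not tested beyond the settings' own construction. No paired analysis was possible because each condition has 1 library. The vector library of the 1-590 set had the lowest depth of the 12, at 0.908 fragments per base.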
